A study of Mus musculus with 20 samples.

Results

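Hmgcs1, Idi1, Fdft1, Sqle, Lss, Dhcr7 and Insig1 are 7 genes of cholesterol synthesis and of its control. They were picked by gene symbol from the expression table of a mouse brain study of spinal muscular atrophy (SMA), where they fill 7 of 45700 rows, and all 7 were among the 15247 genes expressed highly enough to be tested. SMA follows from loss of SMN, a protein best known for assembling spliceosomal ribonucleoproteins. The SMA brains came from “Taiwanese” mice (Smn-/-; SMN2tg/0, congenic FVB), which lack mouse Smn and carry the human SMN2 transgene. The control brains came from littermates that, by the study's methods, were heterozygous (Smn-/+; SMN2tg/0), so the controls carried the transgene and had lost 1 Smn allele as well. Brains were taken on postnatal day 5 (P5, early-symptomatic, 2 replicates per genotype) and on postnatal day 7 (P7, late-symptomatic, 3 replicates per genotype). From them came a library of total cytoplasmic RNA, pooled from all fractions of a sucrose gradient, and a library of polysomal RNA, pooled from the polysomal fractions only, 20 libraries in all. Each library is labelled as coming from a mouse brain, and whether libraries of both fractions that carry one replicate number share a brain is not given in the sources used here.

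Values are FPKM, read fragments scaled to the length of the gene and to the size of the library, so that levels of different genes can be compared. The table holds no counts, so the reads behind a value are unknown, and only the spread between mice measures its error. The median of the tested genes lay between 10.26 and 11.35 FPKM in the 20 libraries. Neuronal, astrocyte, oligodendrocyte, endothelial and microglial markers were all present, as in brain. The 5 hepatocyte markers looked up (Alb, Apoa1, Ahsg, Serpina1a and Fgb) summed to at most 1.82 FPKM in any library.

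Cells make cholesterol from acetyl-CoA through mevalonate and squalene. When membrane sterol falls, the SREBP transcription factors are released from the endoplasmic reticulum and switch on the enzymes of the pathway together with genes of cholesterol uptake. Insig proteins hold SREBP back when sterol is plentiful, and Insig1 is itself an SREBP target. The brain makes its own cholesterol, because plasma lipoproteins do not cross the blood-brain barrier, and in the postnatal weeks much of it goes into myelin. Along the pathway, Hmgcs1 makes HMG-CoA, Idi1 isomerises isopentenyl diphosphate, Fdft1 makes squalene, Sqle oxidises it, Lss closes the ring to lanosterol, and Dhcr7 carries out a last reduction to cholesterol.

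Promoter sequence shows what some of these genes share besides their function. RefSeq promoters (GRCm38.p6, 250 bases before the start to 50 after it) were matched for 5 of the 7 genes, not for Sqle and Fdft1. They were searched on both strands for the sterol response element SRE-1 (10 letters), for the shorter TCACNCCAC, whose letters lie within it, for the CCAAT box of NF-Y and for the GGGCGG box of Sp1. Stretches upstream of 3 starts are shown as examples of how the matches lie together. Capitals mark the matched letters, with CCAAT and GGGCGG on the other strand reading ATTGG and CCGCCC.
Hmgcs1 (chr13:119690171-119690335, plus strand, 180 to 16 bases before the start): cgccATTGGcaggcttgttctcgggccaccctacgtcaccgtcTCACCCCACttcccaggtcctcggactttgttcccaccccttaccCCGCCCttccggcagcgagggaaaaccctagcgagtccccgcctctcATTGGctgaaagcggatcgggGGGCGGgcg
Insig1 (chr5:28071177-28071297, plus strand, 235 to 115 bases before the start): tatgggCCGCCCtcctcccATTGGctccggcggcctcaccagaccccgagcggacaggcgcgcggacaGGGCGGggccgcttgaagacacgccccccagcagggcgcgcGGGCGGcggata
Lss (chr10:76531433-76531553, plus strand, 172 to 52 bases before the start): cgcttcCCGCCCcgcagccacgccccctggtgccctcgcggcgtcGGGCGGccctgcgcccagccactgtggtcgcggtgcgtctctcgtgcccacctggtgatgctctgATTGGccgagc

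TCACNCCAC was found in the Hmgcs1 promoter alone of the 5, as TCACCCCAC at positions −137 to −129 from the start, and is held by 1.44% of the 27025 genes in the table at any of their starts (1.24% of all 32851 promoters). The full SRE-1 was in none of the 5 and in 0.0999% of all genes (0.0913% of promoters). CCAAT was found in all 5 genes, against 41.1% of all genes (37.4% of promoters), and GGGCGG in all 5, against 38.2% of genes (35.7% of promoters). Dhcr7 has 3 listed starts, and its CCAAT matches lay at 1 of them. Of 18 enzymes of the pathway, 15 had a promoter in the table, 14 of them with CCAAT, 14 with GGGCGG and 1, Hmgcs1, with TCACNCCAC. These are letter matches in short windows and not tests of binding.

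Hmgcs1 (ENSMUSG00000093930.1, chromosome 13 of GRCm38, 119690462 to 119708086) had the highest FPKM of the 7 genes in all 20 libraries, between 204.48 and 360.19 with a median of 277. Sqle (ENSMUSG00000022351.12, chromosome 15, 59315077 to 59331192) followed, between 50.24 and 73.54 FPKM. Insig1 (ENSMUSG00000045294.11, chromosome 5, 28071363 to 28078662) lay between 39.72 and 61.11 FPKM. These 3 genes lay well above the median of the tested genes in every library.

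Idi1 (ENSMUSG00000058258.12, chromosome 13, 8885501 to 8892451) lay between 29.62 and 69.03 FPKM. Fdft1 (ENSMUSG00000021273.9) lay between 39.52 and 65.10 FPKM, and the table gives it the locus of the cathepsin gene Ctsb as well (chromosome 14, 63122462 to 63177793). Ctsb is on the opposite strand with a mean of 57.2 FPKM. Lss (ENSMUSG00000033105.10, chromosome 10, 76531588 to 76562226) lay between 20.71 and 48.59 FPKM and shares its locus with an antisense gene, 4930483K19Rik, at a mean of 0.726 FPKM. The library kit marks strand, but the study's methods give default settings for mapping and quantification, which in these programs do not use it, so reads of Fdft1 and Lss may include reads of these neighbours. Dhcr7 (ENSMUSG00000058454.12, chromosome 7, 143823145 to 143848410), between 19.97 and 43.85 FPKM, was the lowest of the 7 in 13 libraries and Lss in 6.

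The order of the levels was firm for Hmgcs1 and looser below it. In the late-symptomatic control total libraries the mean FPKM fell from Hmgcs1 (277) to Sqle (62.2), Insig1 (53.2), Fdft1 (45.8), Idi1 (44.5), Dhcr7 (32.2) and Lss (24.8). Of these neighbours only Fdft1 and Idi1 overlapped between libraries. In the late-symptomatic control polysomal libraries Idi1, Fdft1 and Insig1, with means of 59.8, 52.4 and 47.9 FPKM, overlapped as neighbours, and so did Dhcr7 and Lss at 38.3 and 35.4 FPKM. In the SMA total libraries of both stages Sqle and Insig1 overlapped.

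**Figure D1:**
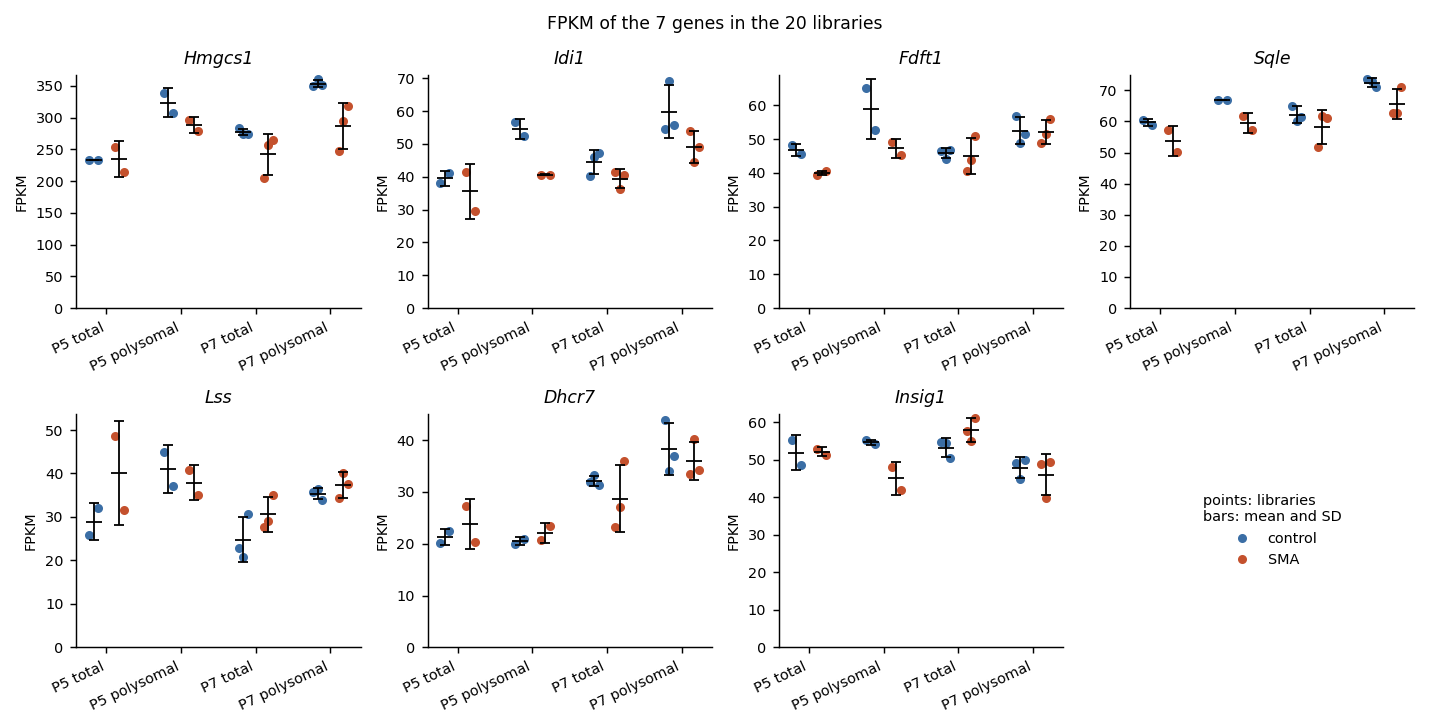
FPKM (vertical axes, starting at 0) of the 7 genes in each library, by stage and fraction on the horizontal axes, control blue and SMA red, with bars for mean and SD over 2 mice (P5) or 3 mice (P7). Hmgcs1 in the P7 polysomal libraries runs from 350.15 to 360.19 FPKM in control and from 248.00 to 318.23 FPKM in SMA, and Dhcr7 in control is higher at P7 than at P5.

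The clearest pattern of these genes was between fractions. In control brains most of the 6 enzymes had a higher FPKM in polysomal than in total cytoplasmic RNA, and Insig1 had a lower one at P7. The FPKM of all genes summed to between 877481.47 and 982934.24 in P7 control total and between 643893.77 and 657669.59 in polysomal libraries. Differences between fractions thus depend on how libraries are scaled, and as a part of this sum Insig1 was not lower in polysomal RNA. With libraries rescaled to equal medians its log2 difference at P7 was −0.14. At P7, Hmgcs1 was at 283.60, 273.97 and 274.85 FPKM in total RNA and at 350.15, 360.19 and 350.75 FPKM in polysomal RNA, so the fractions did not overlap. Its log2 difference was 0.35 (standard error 0.04, limma adjusted p = 0.0106). Sqle was at 65.10, 60.09 and 61.45 FPKM in total and at 73.54, 72.96 and 71.02 FPKM in polysomal RNA. That is a log2 difference of 0.22 (standard error 0.04, limma adjusted p = 0.0384). Both genes were higher in every polysomal library than in any total library, and both kept an unadjusted p under 0.05 in all 6 fits that left out 1 library.

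Of the 7 genes, 6 passed an unadjusted limma p under 0.05, and are named as called from here on, between the fractions of P7 control brains, where 25.3% of all tested genes did and 7.12% passed adjustment. Higher in polysomal RNA were 5 of them, Hmgcs1, Sqle, Idi1, Fdft1 and Lss, against 14.8% of tested genes called in that direction. The log2 differences of Idi1, Fdft1 and Lss were 0.42, 0.19 and 0.53, with limma adjusted p-values of 0.101, 0.144 and 0.110. Insig1, the regulator, was lower in polysomal RNA, at 49.04, 44.76 and 49.82 FPKM against 54.76, 54.47 and 50.39 FPKM. Its log2 difference was −0.15 (standard error 0.06, limma adjusted p = 0.188), against 10.6% of tested genes called lower. Dhcr7 was 0.24 higher on the log2 scale without passing (95% confidence interval −0.01 to 0.50). The fractions lay apart for all 7 genes, higher in polysomal RNA for the 6 enzymes, as for 18.3% of tested genes, and lower for Insig1, as for 12.5%. Leaving out 1 library took the number of members called to between 3 (without control total replicate 1) and 5, and Hmgcs1, Sqle and Idi1 passed in all 6 of those fits, Lss in 4, Fdft1 in 2, Insig1 in 2 and Dhcr7 in 1, without control polysomal replicate 2 (0.32). In 1 model over all 20 libraries Insig1 (unadjusted p = 0.102) and Fdft1 (0.0606) did not pass.

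At P5, 4 of the 7 genes were called in control brains, all higher in polysomal RNA, against 25.9% of tested genes called and 12.3% called higher. Hmgcs1 was at 233.03 and 232.62 FPKM in total and at 339.47 and 307.40 FPKM in polysomal RNA, a log2 difference of 0.47 (standard error 0.09, limma adjusted p = 0.127). Idi1 rose from 37.95 and 41.11 FPKM to 56.74 and 52.50 FPKM, a log2 difference of 0.47 (standard error 0.08, limma adjusted p = 0.113). Lss and Sqle differed by 0.51 and 0.17 on the log2 scale. The fractions did not overlap for these 4 genes and for Fdft1, against 33.9% of tested genes that lay apart in that direction. None of the 4 passed adjustment (1.32% of tested genes did), and without control total replicate 1 no gene of the 7 passed 0.05 unadjusted, where 9.15% of tested genes did. Without control total replicate 2 it was 1 gene (10.8% of tested genes), and without polysomal replicate 1 or 2 it was 2 or 3 (21.8% and 36.7%).

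Other enzymes of the pathway were also higher in polysomal RNA. Of 18 enzymes between Acat2 and Dhcr7, all 18 were above 0 in the P7 comparison. The median log2 difference was 0.23 in the 17 other than Mvd, and the median of all tested genes was 0.05. Of all tested genes 25.3% were called in this comparison and 14.8% were called higher. Among these 17 enzymes 8 were called, all higher, 5 of them described above. Of the others, Cyp51, the lanosterol demethylase, was at 42.53, 43.32 and 47.36 FPKM in total and at 53.71, 61.67 and 61.86 FPKM in polysomal RNA (log2 difference 0.41, limma adjusted p = 0.0420). Nsdhl differed by 0.24 (adjusted p = 0.0619), and Sc5d was called as well. At P5, 16 of the 17 were above 0, with a median of 0.43 against 0.02 for all tested genes. There 7 were called, all higher, with 0 past adjustment, where 25.9% of tested genes were called and 12.3% were called higher. Without control total replicate 1 the number called was 0 of 17, without total replicate 2 it was 2, and without polysomal replicate 2 it was 10. Without polysomal replicate 1 the median was 0.26. Mvd is left out of these counts, a choice made after seeing the data. It is listed at 0 FPKM in both P5 control polysomal libraries, as is the neuronal tubulin Tubb3. These 0 values may be failed estimates and not an absence of RNA. Of 9 genes of uptake and lysosomal export 1, Stard4, was called higher at P7. All 5 erythroid markers were called lower in P7 polysomal RNA, with a summed FPKM of 3620.54, 3680.07 and 4231.86 in total and 2369.30, 2319.37 and 2541.64 in polysomal RNA, most abundant among them Hba-a1. Of the 7 astrocyte markers Aldoc, Gja1 and Slc1a3 were called higher. Mitochondrially encoded genes summed to 23470.71 and 18542.17 FPKM in P5 control total RNA against 1853.01 and 2750.65 FPKM in polysomal RNA, and at P7 to 12011.67, 14446.70 and 11975.62 FPKM against 18917.48, 23188.44 and 19881.79 FPKM, in the other direction. The part of these values in the result was not tested.

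**Figure D2:**
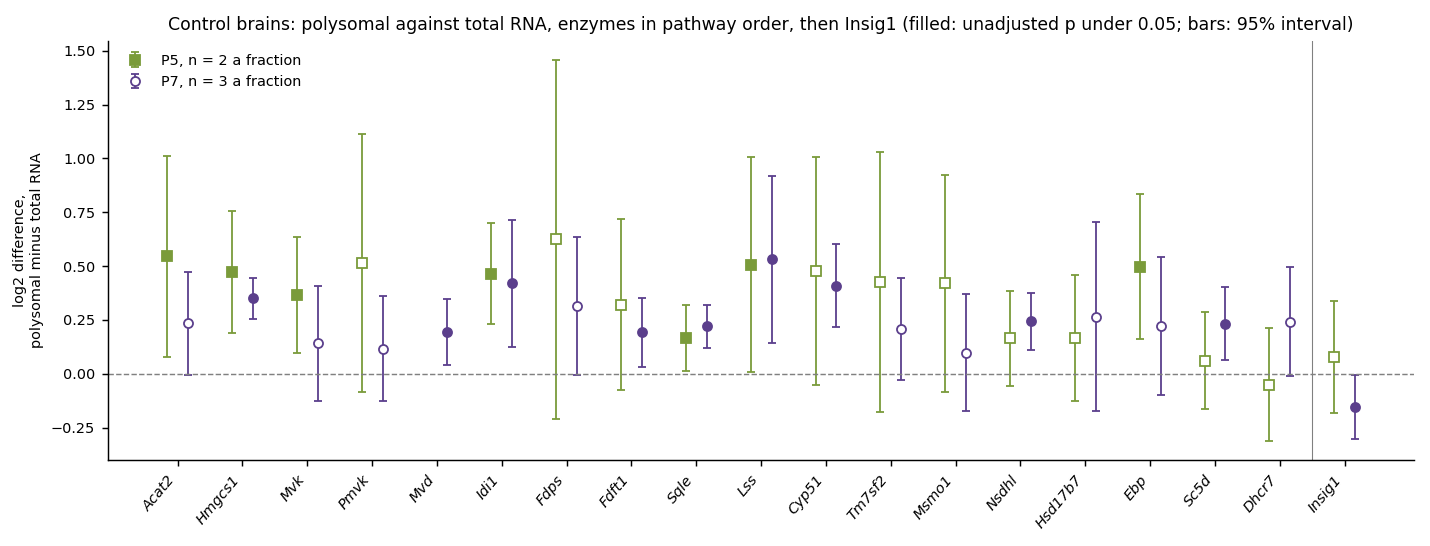
Polysomal minus total RNA (vertical axis, log2) in control brains for 18 enzymes in pathway order, then Insig1, at P5 (green squares) and P7 (purple circles), with 95% confidence intervals and filled symbols where the unadjusted limma p was under 0.05. All 18 enzymes lie above 0 at P7, with Hmgcs1 at 0.35 and Insig1 at −0.15, and Mvd is not drawn at P5 because it is listed at 0 there.

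In SMA brains a few members were lower by small amounts, and no change passed adjustment. The control libraries are those of the comparison between fractions, so the results are not independent of it. At P7 in polysomal RNA, Hmgcs1 was at 350.15, 360.19 and 350.75 FPKM in control libraries, against 248.00, 294.85 and 318.23 FPKM in SMA ones. Every SMA value was below every control value, and the SMA mice were spread far more widely than the controls. The log2 change was −0.31 (standard error 0.10, 95% confidence interval −0.56 to −0.05, limma unadjusted p = 0.0264, adjusted p = 0.410), 19.3% lower. Sqle was at 73.54, 72.96 and 71.02 FPKM in control libraries, against 62.81, 62.64 and 71.04 FPKM in SMA ones, where the third SMA mouse overlapped the controls. Its log2 change was −0.15 (standard error 0.06, limma unadjusted p = 0.0494, adjusted p = 0.463). Since whole brains were used, fewer cells of a type and less RNA per cell cannot be told apart.

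These 2 of 7 genes were called, both lower, where 10.7% of tested genes were called, 5.38% were called lower and 0.0918% passed adjustment. With 1 mouse left out, Hmgcs1 passed in 2 of 6 fits, those without SMA replicate 1 and without SMA replicate 3, with an unadjusted p between 0.0126 and 0.0715. Sqle passed in 1 of 6, without SMA replicate 3, and its p reached 0.138. In 1 model over all 20 libraries Sqle was not called (unadjusted p = 0.0715) and Idi1 was (0.0378). The groups also lay apart for Idi1, at 54.61, 69.03 and 55.64 FPKM in control libraries, against 54.03, 44.35 and 48.98 FPKM in SMA ones (log2 change −0.28, 95% confidence interval −0.59 to 0.03), which passed 0.05 without SMA replicate 1 (−0.35). With 1 mouse left out the log2 change of Idi1 lay between −0.35 and −0.17. Hmgcs1 and Idi1 were thus the 2 genes without overlap, against 8.24% of tested genes that lay apart and lower. Insig1, Fdft1, Lss and Dhcr7 had log2 changes of −0.06, −0.01, 0.08 and −0.09, and their groups overlapped. Their 95% confidence intervals still allow changes from −0.39 (Dhcr7) to 0.25 (Lss).

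In total RNA at P7 none of the 7 genes was called, where 9.54% of tested genes were. In the same limma fit 1454 genes passed an unadjusted p under 0.05 and 17 (0.111%) passed adjustment. Hmgcs1 was again lower in every SMA mouse, at 204.48, 256.31 and 265.42 FPKM against 283.60, 273.97 and 274.85 FPKM (log2 change −0.21, 95% confidence interval −0.48 to 0.07). With 1 mouse left out its log2 change lay between −0.28 and −0.09. Insig1 lay apart in the other direction, at 57.52, 54.86 and 61.11 FPKM in SMA against 54.76, 54.47 and 50.39 FPKM in control mice (log2 change 0.12, interval −0.02 to 0.26). Of all tested genes, 7.37% lay apart and lower and 7.63% apart and higher. Lss was 0.32 higher on the log2 scale and Dhcr7 0.19 lower, with overlapping groups. Dhcr7 passed 0.05 without SMA replicate 3 (log2 change −0.36), Lss without control replicate 3 (0.48), Idi1 without control replicate 1 (−0.24) and Insig1 without SMA replicate 2 (0.16).

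At P5 the calls fell on other members. In polysomal RNA, Idi1 was at 56.74 and 52.50 FPKM in control libraries, against 40.66 and 40.49 FPKM in SMA ones, a log2 change of −0.43 (standard error 0.07, limma unadjusted p = 0.00597, adjusted p = 0.346), 25.6% lower. Insig1 was at 55.10 and 54.04 FPKM against 48.07 and 41.94 FPKM, a log2 change of −0.28 (standard error 0.09, limma unadjusted p = 0.0496, adjusted p = 0.400). These 2 genes were called, where 12.5% of tested genes were called, 6.82% were called lower and 0.649% passed adjustment. SMA values lay below control values for 5 of the 7 genes, Hmgcs1, Sqle, Insig1, Idi1 and Fdft1, and 26.6% of tested genes lay apart in that direction with 2 mice against 2. Hmgcs1 and Sqle, the members called at P7, were each at −0.17 on the log2 scale here without passing. Idi1 passed in 2 of the 4 fits without 1 mouse and failed without SMA replicate 1 or 2, with a p of up to 0.0539, and Insig1 failed in all 4. Without control replicate 2, Fdft1 passed, with a log2 change of −0.46 in place of −0.31, in a fit that called 19.8% of tested genes.

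In total RNA at P5, Fdft1 alone was called, at 48.12 and 45.58 FPKM in control libraries, against 39.52 and 40.45 FPKM in SMA ones. The log2 change was −0.23 (standard error 0.06, limma unadjusted p = 0.0283, adjusted p = 0.551), where 8.25% of tested genes were called, 3.89% were called lower and 0.164% passed adjustment. It failed in all 4 fits without 1 mouse, with a p between 0.0503 and 0.225. In 1 model over all 20 libraries it was not called (unadjusted p = 0.0679), and Lss was called in its place, higher in SMA mice by 0.45 (unadjusted p = 0.0437). Sqle, at 60.55 and 58.80 FPKM against 57.17 and 50.24 FPKM, also lay apart and lower, as 22.5% of tested genes did, and it passed without SMA replicate 1 (log2 change −0.25), as did Idi1 (−0.41). Without SMA replicate 2, Lss passed, higher in SMA mice (0.76), in a fit that called 28.3% of tested genes. Hmgcs1 was at 233.03 and 232.62 FPKM in control libraries, against 254.53 and 214.68 FPKM in SMA ones, on both sides of the controls. In both fractions at P5 the change of a gene rose with its transcript length, across 15162 tested genes with a Spearman's rho of 0.393 in total and 0.310 in polysomal RNA. The transcripts of the 7 genes lay between the 40.6 and the 91.3 percentile of length. After a correction for length 2 members were called in total RNA, Fdft1 and Sqle, and 1 in polysomal RNA, Idi1.

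**Figure D3:**
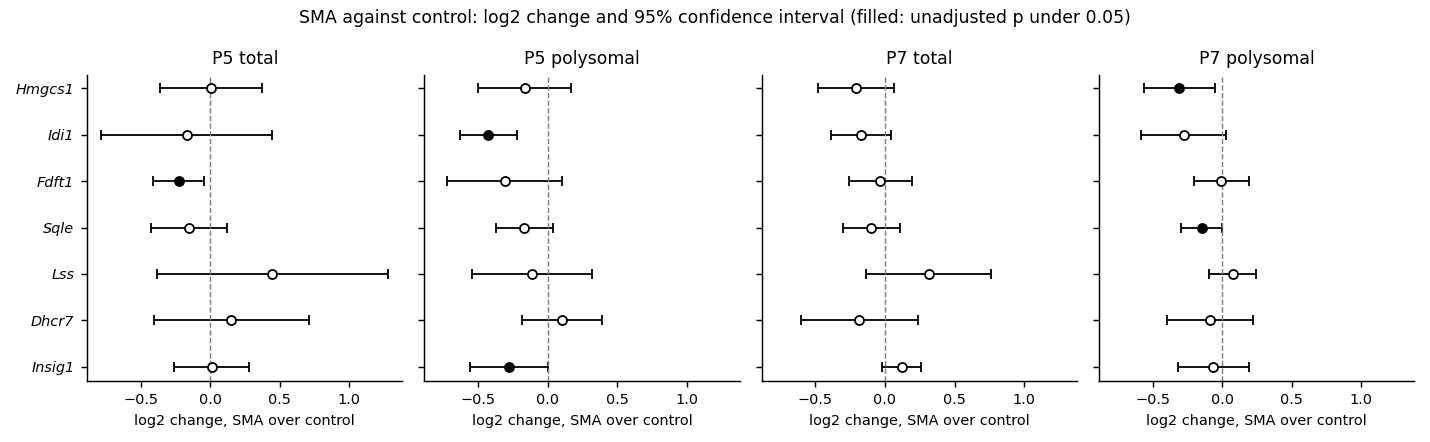
Log2 change of SMA over control (horizontal axes) with 95% confidence intervals for the 7 genes in the 4 comparisons of genotype, filled where the unadjusted limma p was under 0.05. Filled are Fdft1 (P5 total), Idi1 and Insig1 (P5 polysomal) and Hmgcs1 and Sqle (P7 polysomal), all below 0 and none past adjustment.

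No member was called for a response that differed between the stages. The difference of the SMA change between P7 and P5 was called for 0 of the 7 genes in total RNA, where 10.1% of tested genes passed an unadjusted limma p under 0.05 and 0.125% passed adjustment, and for 0 in polysomal RNA, where 13.7% and 0.597% did. For Hmgcs1 this difference was −0.14 in polysomal RNA (95% confidence interval −0.50 to 0.21), for Idi1 it was 0.15 (−0.25 to 0.54) and for Fdft1 0.30 (−0.06 to 0.66). Leaving out 1 library made 1 gene pass at a time, Fdft1 in polysomal RNA without P5 control replicate 2 (0.45, where 24.4% of tested genes passed) and in total RNA without P7 SMA replicate 1 (0.27), Insig1 in polysomal RNA without P7 SMA replicate 2 (0.32) and Dhcr7 in total RNA without P7 SMA replicate 3 (−0.51). The intervals of Fdft1 and Idi1 leave room for a difference between stages as large as the changes themselves.

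Translation efficiency (TE), the polysomal minus the total log2 value, was calculated within each replicate number. The labels do not say whether libraries of one number share a mouse. The summed oligodendrocyte markers went with the number between fractions. In P7 SMA brains they were 459.27, 398.19 and 244.22 FPKM in total and 537.93, 457.32 and 265.92 FPKM in polysomal RNA. In P7 control brains replicate 1 was lowest in both fractions (160.29 and 185.04 FPKM), while replicates 2 and 3 changed order. At P5 replicate 1 lay below replicate 2 in both fractions, in control (167.98 and 286.29 FPKM in total, 184.07 and 312.79 FPKM in polysomal RNA) and in SMA brains. Over all tested genes, same-numbered total and polysomal libraries correlated at 0.11, 0.07 and 0.11 in P7 SMA brains, and at −0.002, −0.015 and 0.014 in P7 control brains. The change in TE was tested over all libraries of a stage without pairing them. At P5 the change in TE was below 0 for all 7 genes, with a median of −0.17 against −0.03 for all tested genes. This did not hold in every fit with 1 replicate number left out, where Dhcr7 reached 0.25, Fdft1 0.03 and Sqle 0.02. The limma interaction called 0 of the 7, where 2.32% of tested genes passed an unadjusted p under 0.05 and 0.617% passed adjustment. Insig1 had a log2 TE of 0.00 and 0.15 in control mice against −0.14 and −0.29 in SMA mice, a change of −0.29 (95% confidence interval −0.63 to 0.06). Lss had the largest change, −0.56, and the widest interval (−1.41 to 0.29). Its log2 TE was 0.79 and 0.22 in control mice against −0.26 and 0.15 in SMA mice, so the control replicates lay as far apart as the change. At P7, 5 of the 7 were below 0 and 0 were called, where 2.07% of tested genes were called and 0.0394% passed adjustment. Hmgcs1 had a log2 TE of 0.30, 0.39 and 0.35 in control mice against 0.28, 0.20 and 0.26 in SMA mice, values that depend on which libraries are set against each other. Its change was −0.10 (interval −0.45 to 0.24). Without P5 SMA replicate 2, Idi1 passed 0.05 (−0.50, where 6.24% of tested genes did), and without P7 control replicate 3, Lss did (−0.43).

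**Figure D4:**
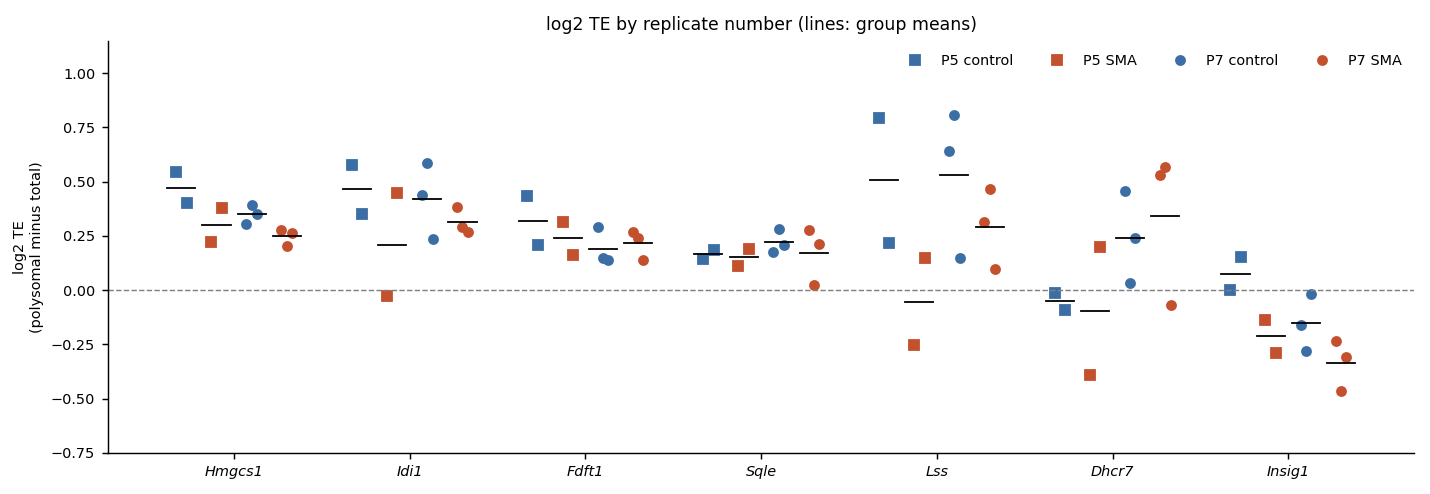
Log2 TE (vertical axis) of the 7 genes for each replicate number, P5 as squares and P7 as circles, control blue and SMA red, with lines for the group means. Insig1 lies between −0.46 and −0.14 in SMA and between −0.28 and 0.15 in control, and Hmgcs1 in P7 SMA mice lies between 0.20 and 0.28 and in P7 control mice between 0.30 and 0.39.

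Between P5 and P7 in control brains the members parted ways. The labels do not say when libraries were prepared, so age and preparation cannot be told apart in this comparison. Gm26377 had the highest FPKM of all genes in every P5 library and in no P7 library. Dhcr7, the last enzyme of the pathway, rose the most, from 20.13 and 22.37 FPKM to 31.94, 33.26 and 31.29 FPKM in total RNA (log2 change 0.60 with a standard error of 0.06, limma adjusted p = 0.0145). In the polysomal fraction it rose from 19.97 and 21.00 FPKM to 43.85, 33.99 and 36.95 FPKM (log2 change 0.89, standard error 0.13, limma adjusted p = 0.0248). It passed 0.05 in all 5 fits without 1 library, in both fractions. Hmgcs1 rose in total RNA, by 0.25 on the log2 scale (limma adjusted p = 0.0221), but in 1 model over all 20 libraries this did not pass (limma unadjusted p = 0.0511). In polysomal RNA the Hmgcs1 change of 0.13 did not pass. Insig1 fell in polysomal RNA by 0.19 on the log2 scale (limma unadjusted p = 0.0403, adjusted p = 0.104), and this failed in all 5 fits without 1 library. Sqle, Idi1, Fdft1 and Lss were not called in either fraction. Lss passed in polysomal RNA without P5 control replicate 2 (log2 change −0.34) and Idi1 in total RNA without P7 control replicate 1 (0.24).

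These 2 calls of 7 in each fraction stand beside 40.3% of tested genes called in total and 42% in polysomal RNA, shares that are no lower than that of the members. Called higher were 20.1% in total and 20.7% in polysomal RNA, called lower in polysomal RNA 21.4%, and past adjustment 21.2% and 20.6%. The stages lay apart and higher at P7 for Hmgcs1 and Dhcr7 in total RNA, as for 27.6% of tested genes, and for Hmgcs1, Sqle and Dhcr7 in polysomal RNA, as for 28.2%. They lay apart and lower for Insig1 and Lss in polysomal RNA, as for 31.6%. Other enzymes went both ways. In total RNA Nsdhl rose, and Mvk, Fdps and Cyp51 fell. In polysomal RNA Nsdhl and Sc5d rose, and Acat2, Mvk, Fdps and Cyp51 fell. The median log2 change of the 17 enzymes other than Mvd was −0.21 in polysomal RNA. It was −0.07 without P5 control replicate 1 and −0.31 without P5 control replicate 2. Without P7 control replicate 1 or 2 it was −0.27 and −0.18, and the number called lower went from 4 to 2. The summed FPKM of the mitochondrially encoded genes differed between the stages as well, at 1853.01 and 2750.65 in P5 and between 18917.48 and 23188.44 in P7 control polysomal libraries. Cell-type markers moved as well. Of 6 neuronal markers 5 were called in total and 6 in polysomal RNA, all higher (median log2 changes 0.51 and 0.97). Of 5 microglial markers 4 were called higher and 1 lower in total RNA, and 3 higher in polysomal RNA. Of the 8 oligodendrocyte markers 0 were below 0 (medians 0.44 and 0.32), with 0 and 1 called. Endothelial calls went both ways. The part of these values in the comparison of stages was not tested.

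Around the members, the other enzymes gave a wider view of the SMA comparisons. In P5 polysomal RNA 16 of the 17 enzymes other than Mvd were below 0, with a median log2 change of −0.26 against −0.01 for all tested genes. Called lower were 4 of them, Idi1, the mevalonate kinase Mvk, and the sterol enzymes Ebp and Tm7sf2, and 0 were called higher, where 6.82% of tested genes were called lower. In 1 model over all 20 libraries 8 of the 17 were called lower, in a fit that called 25% of tested genes. Ebp was at 22.58 and 22.20 FPKM in control libraries, against 14.89 and 14.87 FPKM in SMA ones. The median was −0.16 without control replicate 1 and −0.46 without control replicate 2, and the number called lower was 3 and 9, in fits that called 8.25% and 19.8% of tested genes. Without SMA replicate 1 or 2 it was 2 and 1. In P5 total RNA 12 of the 17 were below 0 (median −0.16), and Fdft1, Mvk, Nsdhl and Tm7sf2 were called lower, where 3.89% of tested genes were. Without SMA replicate 2 the median was −0.06, with 5 called lower and 2 higher, without SMA replicate 1 it was −0.21 with 5 called lower, and without control replicate 1 or 2 the number called lower was 0 and 1.

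At P7 the medians lay between −0.11 and −0.08. In total RNA 13 of the 17 were below 0 (median −0.11 against 0.00 for all tested genes) and Tm7sf2, a sterol reductase, was the 1 called, where 9.54% of tested genes were, at 32.12, 32.55 and 33.59 FPKM in control libraries, against 25.50, 27.66 and 27.71 FPKM in SMA ones (log2 change −0.28, limma unadjusted p = 0.00137, adjusted p = 0.209). In polysomal RNA 14 of the 17 were below 0 (median −0.08), and Hmgcs1, Sqle and Nsdhl were called lower, as 5.38% of tested genes were. Nsdhl was at 29.33, 27.76 and 27.76 FPKM in control libraries, against 24.11, 25.25 and 25.94 FPKM in SMA ones (log2 change −0.17, adjusted p = 0.314). Mvd was lower too (−0.24, adjusted p = 0.425). Cyp51 was at −0.18 (limma unadjusted p = 0.0507). Without SMA replicate 1 the median was −0.04 in either fraction, and 10 of 17 were below 0 in each. Without control replicate 1 the polysomal median was −0.05, again with 10 below 0, and without control replicate 2 it was −0.14 with 15. Without SMA replicate 3 the number called lower in total RNA was 4, without control replicate 1 it was 3, and without control replicate 3 or SMA replicate 2 it was 2. In polysomal RNA the number called lower lay between 1 and 4 with 1 mouse left out, with 1 without control replicate 3 or SMA replicate 2.

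The P7 minus P5 difference of the SMA change was set out for the same 17 enzymes. In total RNA its median was 0.06 against −0.02 for all tested genes, 8 of the 17 were below 0 and 1 was called, higher, where 10.1% of tested genes were called in either direction. This median was −0.04 without P5 SMA replicate 2, with 3 called higher and 1 lower, and −0.01 without P7 SMA replicate 3, with 1 called lower. It was 0.15 without P5 SMA replicate 1, with 4 of the 17 below 0, and 0.13 without P7 SMA replicate 1. Without P5 control replicate 2 or P7 SMA replicate 1 the number called was 2, and without P5 control replicate 1, P5 SMA replicate 1 or P7 control replicate 1 it was 0. In polysomal RNA the median was 0.19 against 0.01, and 3 of the 17 were below 0. There 3 were called, all higher, where 13.7% of tested genes were called, and limma gave 0 after adjustment in either fraction. Over 15162 tested genes this difference fell with transcript length, with a Spearman's rho of −0.378 in total and −0.343 in polysomal RNA. After the correction for length the polysomal median was 0.24, with 3 of the 17 below 0 and 1 called, higher. With 1 library left out the polysomal median lay between 0.09 (without P5 control replicate 1) and 0.33 (without P5 control replicate 2). The number called there was 6 without P5 control replicate 2 and 1 without P5 control replicate 1, P5 SMA replicate 2 or P7 control replicate 3.

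Among regulators of the pathway the calls at P7 were in the other direction. Srebf1, which encodes the SREBP more tied to fatty acid genes, was called higher at P7 in both fractions. It was at 16.93, 15.90 and 21.66 FPKM in control libraries, against 24.99, 21.98 and 24.01 FPKM in SMA total RNA (log2 change 0.39, limma adjusted p = 0.464), and at 0.44 in polysomal RNA (adjusted p = 0.357). Mbtps1, a protease that cleaves SREBP, was called higher as well, by 0.09 and 0.14. Srebf2, the SREBP more tied to cholesterol genes, and Insig2 were not called in any SMA comparison. In P7 total RNA Srebf2 had a log2 change of −0.08. Insig2 was at 21.73, 27.79 and 59.45 FPKM in control libraries there, against 43.87, 34.74 and 41.46 FPKM in SMA ones, so the controls lay on both sides of the SMA values (log2 change 0.27, 95% confidence interval −0.73 to 1.27). Of the 7 genes of SREBP regulation, 2 were called at P7 in each fraction, where 9.54% (total) and 10.7% (polysomal) of tested genes were. At P5 it was 1 in total (Mbtps1) and 1 in polysomal RNA (Insig1), near the 8.25% and 12.5% of tested genes called there.

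Uptake genes gave calls in both directions. Of all tested genes 8.25% and 12.5% were called in total and polysomal RNA at P5, and 9.54% and 10.7% at P7, and the counts of these small lists stand against those shares. At P5, 2 of the 9 were called in total and 3 in polysomal RNA, 1 of them lower in each. Higher were Lrp1 in both fractions and Lrp8 in polysomal RNA. In P7 total RNA limma gave 0 of 9 at an unadjusted p under 0.05 and 0 after adjustment. In P7 polysomal RNA Scarb1, a lipoprotein receptor, was the 1 called, higher by 0.23 (adjusted p = 0.424). Of the 7 genes of efflux and turnover, Apoe, the main apolipoprotein of the brain, was called higher at P7 in both fractions, by 0.31 and 0.38 (adjusted p = 0.405 and 0.428). Nr1h3, a sterol-sensing nuclear receptor, was lower in polysomal RNA (−0.64, adjusted p = 0.430), and the exporter Abca1 was called higher at P5 in both fractions (0.28 and 0.30), with values of 0.11 and −0.06 at P7. Abcg1, another exporter, was called higher in P5 total RNA (0.34). Of the 8 fatty acid genes, Acss2 and Elovl6 were called lower in P7 total RNA (−0.23 and −0.17) and none in P7 polysomal RNA, where limma gave 0 of 8 at an unadjusted p under 0.05 and 0 after adjustment. At P5 the fatty acid synthase Fasn was called higher in total RNA, at 47.42 and 43.78 FPKM in control libraries, against 71.63 and 59.07 FPKM in SMA ones, and in polysomal RNA limma again gave 0 of 8 by either threshold.

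Markers of cell types moved in the same libraries. Of the 5 endothelial markers, Cldn5, Cdh5, Flt1 and Pecam1 were called lower at P7 in both fractions and at P5 in total RNA, and Cldn5 and Cdh5 in P5 polysomal RNA. In each SMA comparison 4 of the 5 were below 0, and where those 4 were called the fifth, Slco1a4, was not below 0. Of all tested genes 8.25% and 12.5% were called in total and polysomal RNA at P5, and 9.54% and 10.7% at P7. The summed FPKM of the 5 endothelial markers at P7 was 53.11, 53.18 and 60.21 in control and 30.05, 35.45 and 28.77 in SMA polysomal RNA. Most of it was Cldn5, and no marker was at 0. Of the 7 astrocyte markers, Aldoc was called higher at P7 (0.77 and 0.79 on the log2 scale), and Aldoc and Slc1a2 in P5 total RNA. At P7 the median log2 change of the 7 was 0.11 in total and 0.09 in polysomal RNA, with 1 of them below 0 in each. The sum of the 7 at P7 was 679.90, 655.96 and 593.32 FPKM in control libraries, against 900.41, 824.75 and 714.65 FPKM in SMA polysomal RNA, led by Aldoc. None of the 8 tested oligodendrocyte markers was called in an SMA comparison by limma at an unadjusted p under 0.05 or after adjustment. At P7 0 of the 8 were below 0 in either fraction (median log2 changes 0.28 and 0.32), and at P5 6 of the 8 were below 0 in each. Their summed FPKM, led by Mbp, was 185.04, 467.29 and 421.29 in control and 537.93, 457.32 and 265.92 in SMA polysomal RNA at P7.

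SMA replicate 1 at P7, which had the lowest Hmgcs1 in both fractions, had the highest oligodendrocyte sum, 459.27 FPKM in total and 537.93 FPKM in polysomal RNA. P7 control replicate 1 had the lowest, 160.29 and 185.04 FPKM. Of the microglial markers P2ry12 was called lower in both P5 fractions and in P7 total RNA, and C1qa higher in both P7 fractions. Of the erythroid markers Hba-a2 was called lower in P5 total and Hbb-bt in P7 polysomal RNA. Of the 6 neuronal markers Map2 was called higher in P5 and in P7 total RNA, at P7 by 0.11 on the log2 scale. In each of these comparisons 4 of the 6 were below 0 (median log2 changes −0.11 and −0.08). Tubb3 was called higher in P5 polysomal RNA, but it is listed at 0 in both control libraries there. That 0 may be a failed estimate, so the call may not be a change in RNA. Of the 5 markers of oligodendrocyte precursors Cspg4 and Pdgfra were called higher in P5 total and Olig2 lower in P5 polysomal RNA. Mitochondrially encoded genes summed to between 18917.48 and 23188.44 FPKM in P7 control polysomal libraries and to 8039.11, 9337.11 and 12497.31 FPKM in the SMA ones. The part of these values in the differences of the members was not tested.

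**Figure D5:**
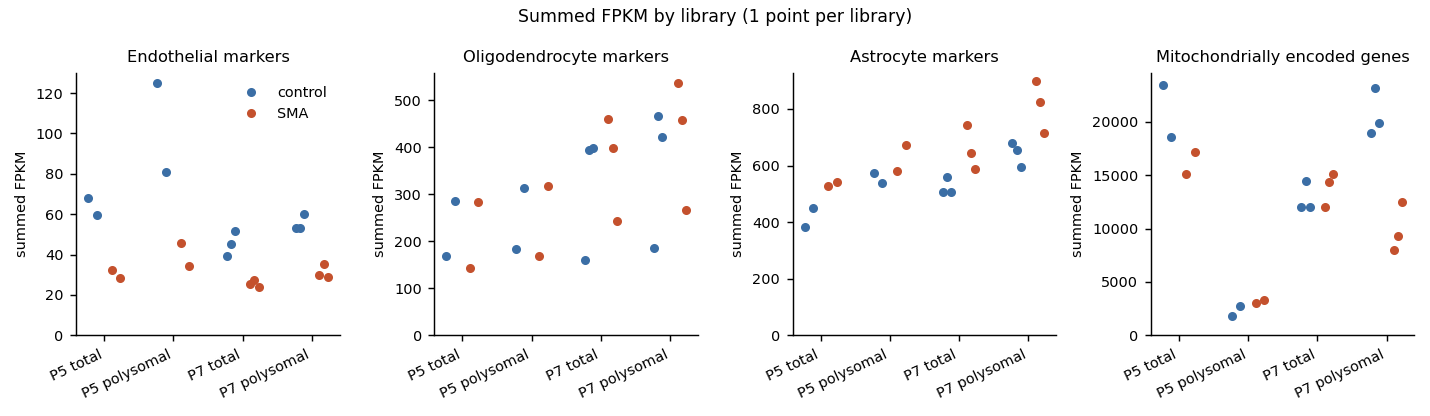
Summed FPKM (vertical axes, starting at 0) of endothelial, oligodendrocyte and astrocyte markers and of mitochondrially encoded genes in each library, by stage and fraction, control blue and SMA red. The endothelial sum in P7 polysomal RNA is 53.11 to 60.21 in control and 28.77 to 35.45 in SMA, while the oligodendrocyte sums of the genotypes overlap in all 4 comparisons.

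Across the 20 libraries some enzymes varied together and others did not. Pearson's r on log2 values was 0.90 between Hmgcs1 and Sqle, 0.79 between Sqle and Idi1 and 0.74 between Hmgcs1 and Fdft1. It was 0.45 between Hmgcs1 and Dhcr7, 0.38 between Hmgcs1 and Lss, 0.23 between Sqle and Lss, 0.22 between Fdft1 and Dhcr7 and −0.04 between Lss and Dhcr7. Between Insig1 and the 6 enzymes it lay between −0.34 and −0.10. The libraries fall into 8 groups by genotype, stage and fraction, so r is given as a description. The tested genes most like the mean profile of the 7 were Rras2 (r = 0.91), Acot9 (0.91), Gm15459 (0.90), Gucy1b3, Tmem68, Slc39a10 (0.89 each), Vmp1 (0.88), Agpat5, Sybu and Sla (0.86 each), over 20 libraries. Gm15459 is a processed pseudogene that shares 91.9% of its stretches of 31 bases with the chaperone gene Hspa8, so its value may be reads of Hspa8. Among the other listed genes of cholesterol metabolism Nsdhl, Sc5d, Msmo1 and Tm7sf2 came closest, with an r between 0.67 and 0.70.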

How the data were processed

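Reads of 100 bp were mapped by the authors with Tophat 2.0.14 (GRCm38.p4, Gencode M6 annotation), and they deposited FPKM computed with Cufflinks 2.2.1, 1 value for each of 45700 genes and 20 libraries. Genes averaging 1 FPKM or more were tested with limma 3.58.1 in R 4.3.3 (lmFit, eBayes with a trend) on log2(FPKM + 0.1), each comparison in a fit of its own, and called at an unadjusted p under 0.05, the study's threshold. Adjusted p-values are Benjamini-Hochberg over the 15247 genes tested. The study's CuffDiff and Xtail need alignments or counts and could not be run on FPKM. Fold changes of weakly expressed genes are understated on this scale. Nothing in the labels says more of a replicate than its number. Exact permutation tests of 2 mice against 2 or 3 against 3 cannot go below 0.333 or 0.1 and were not used. The fit was tested on simulated data. The members, gene lists and rules were chosen with earlier results of these data known. Named were the 7 members, listed genes called at P7 (at most 4 a list), some set genes (Cyp51, Srebf1, Srebf2, Insig2, Apoe, Abca1) and the 10 most alike genes. Other genes, such as Mvk, Ebp, Stard4, Mvd and Tubb3, were named as members of a counted group after their values were seen. Loci are 1-based. Lengths come from Gencode M21, which matched 99.4% of tested identifiers. Some genes of the pathway are not reported here and were left out of the lists and counts.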

Additional observations from a re-analysis of the deposited data

How the results depend on the processing

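No member changed direction while called. Of the values of single members under another setting, 965 kept their side of the threshold, 85 lost their call, those that failed an adjusted p under 0.05 among them, and 28 gained one. Numbers of members called moved as follows. The replicate number was also used as a block. Correlations over all tested genes gave little ground for it, though the summed oligodendrocyte markers went with the number between fractions. Correlations of same-numbered libraries lay between −0.09 and 0.11, with those between the fractions of P7 SMA brains at 0.07 to 0.11. With the block the numbers called were 0 in P5 total, 1 in P5 polysomal, 1 in P7 total and 1 in P7 polysomal RNA for SMA, 1 for P7 against P5 in control polysomal RNA and 2 for polysomal against total RNA at P5. With adjusted p-values they were 0 in P5 total, P5 polysomal and P7 polysomal RNA, 1 for P7 against P5 in control polysomal RNA, 0 and 2 for polysomal against total RNA at P5 and P7. A pseudocount of 1, no filter and the length correction gave 1 each in P5 and in P7 polysomal RNA, and equal medians gave 1 in P7 polysomal RNA. The length correction gave 2 in P5 total RNA. One model over all 20 libraries gave 1 for P7 against P5 in either fraction, 3 in P5 polysomal RNA, with Fdft1 added, and 4 in place of 6 for polysomal against total RNA at P7, where no filter and the block gave 5. No filter gave 3 in place of 2 for P7 against P5 in polysomal RNA, with Sqle added, and no filter (Lss lost) and the length correction (Sqle lost) gave 3 in place of 4 for polysomal against total RNA at P5. Some counts that stayed level changed genes. One model called Lss in place of Fdft1 in P5 total RNA, Idi1 in place of Sqle in P7 polysomal RNA and Fdft1 in place of Sqle for polysomal against total RNA at P5, equal medians called Dhcr7 in place of Insig1 for the fractions at P7, and the length correction Lss in place of Insig1 for P7 against P5 in polysomal RNA. With 1 mouse or library left out they were 0 to 2 in P5 total, 0 to 2 in P5 polysomal, 0 to 1 in P7 total, 0 to 2 in P7 polysomal RNA, 0 to 1 for TE at either stage, 0 to 1 for the difference between stages in either fraction, 2 to 3 and 1 to 2 for P7 against P5 in total and polysomal RNA, and 0 to 3 and 3 to 5 for polysomal against total RNA at P5 and P7. A lone library left in a group was assumed to vary like the others. The share of all tested genes called also moved: in one model it was 19.8% in place of 8.25% in P5 total, 25% in place of 12.5% in P5 polysomal RNA and 3.87% in place of 2.32% for TE at P5; with no filter 4.47% for TE at P5, 22.2% and 22% for P7 against P5 and 15.9% for polysomal against total RNA at P7; with the block 4.77% in P5 total RNA and 4.32% for TE at P7; and with the length correction 6.7% and 9.08% for the difference between stages. With 1 library left out this share lay between 2.63% and 28.3% in P5 total, 5.19% and 19.8% in P5 polysomal, 6.72% and 11.2% in P7 total and 7.25% and 13.5% in P7 polysomal RNA, 1.97% and 6.24% for TE at P5 and 1.81% and 4.74% at P7, 5.22% and 27.7% (total) and 7.87% and 24.4% (polysomal) for the difference between stages, 27% and 40.5% and 28.6% and 40.9% for P7 against P5, and 9.15% and 36.7% (P5) and 19.4% and 23.2% (P7) for polysomal against total RNA. The values are FPKM without counts, so the precision that read depth gives each value is unknown. With 2 or 3 libraries a group the intervals are often wider than the changes themselves.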
